A study of Arabidopsis thaliana with 24 samples.

Results

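Of the 33681 genes in the deposited table, 10 are the cell division and leaf growth genes described here. They were chosen by locus and are *CYCD3;1* (AT4G34160), *CYCD3;2* (AT5G67260), *CYCD3;3* (AT3G50070), *CYCB1;1* (AT4G37490), *CYCB1;2* (AT5G06150), *CYCA2;3* (AT1G15570), *CDKB1;1* (AT3G54180), *CDKB2;1* (AT1G76540), *KNOLLE* (AT1G08560) and *ANT* (AT4G37750). All 10 were found, and all 10 were among the 21596 genes kept by the filter on low values (10 or more normalized counts in 3 or more libraries). Beyond the paragraph that introduces it, each cyclin or kinase gene is called by its locus, the name used in the deposited table. RNA-seq covered 24 libraries of whole 14-day-old *Arabidopsis thaliana* seedlings grown in short days, 3 from each of 8 genotypes, all in the Col-0 background. The genotypes were WT, the *bcl7a* and *bcl7b* insertion mutants, the *bcl7a bcl7b* mutant that combines them, the *brm-3* and *brm-1* mutants, and *bcl7a bcl7b brm-3* and *bcl7a bcl7b brm-1*, called the triple mutants below. BRM is the ATPase of a plant SWI/SNF chromatin remodelling complex, and BCL7A and BCL7B are accessory proteins of it. The study also found BCL7A and BCL7B together with the other SWI/SNF ATPases, SYD and the MINU proteins. The study describes *brm-3* as a hypomorphic allele and *brm-1* as a null allele. The *bcl7a* and *bcl7b* genotypes are each represented by 1 insertion line. The comparisons ask how loss of the accessory proteins, alone or on top of a *brm* mutation, changes transcript levels.

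D-type cyclins join the kinase CDKA to phosphorylate the retinoblastoma-related protein, which frees E2F factors and lets a cell enter DNA synthesis. The *CYCD3* genes respond to cytokinin and keep young leaf cells in division before they switch to endoreduplication, in which DNA is copied without division. A2-type and B1-type cyclins act with B-type cyclin-dependent kinases, which are particular to plants, in late G2 and mitosis. *KNOLLE* encodes the syntaxin that fuses vesicles into the cell plate during cytokinesis. *ANT* encodes an AP2-domain transcription factor that prolongs cell division in young leaves and other lateral organs. Many plant genes of G2 and mitosis carry the mitosis-specific activator element bound by MYB3R proteins.

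The 250 bases before the annotated start of each gene were read from the RefSeq assembly TAIR10.1 and searched on both strands for the core of the mitosis-specific activator element, AACGG. The core was found in 4 of the 10 windows, against 20.6% of 27443 promoters of the same length. The sequences shown are the windows that held the core and that share no base with an exon of a neighbouring gene, written 5′ to 3′ along the gene's strand with the core in capitals (AACGG or its reverse complement CCGTT). The window of *CYCD3;1* held 1 AACGG and lies partly in an exon of AT4G34150, so that it is not shown. They are followed by their positions.
CYCB1;1: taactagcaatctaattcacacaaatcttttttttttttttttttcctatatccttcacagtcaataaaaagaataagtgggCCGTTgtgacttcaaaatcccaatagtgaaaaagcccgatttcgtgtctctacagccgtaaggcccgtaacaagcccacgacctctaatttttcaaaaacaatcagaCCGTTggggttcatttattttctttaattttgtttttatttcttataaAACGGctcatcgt
CYCB1;2: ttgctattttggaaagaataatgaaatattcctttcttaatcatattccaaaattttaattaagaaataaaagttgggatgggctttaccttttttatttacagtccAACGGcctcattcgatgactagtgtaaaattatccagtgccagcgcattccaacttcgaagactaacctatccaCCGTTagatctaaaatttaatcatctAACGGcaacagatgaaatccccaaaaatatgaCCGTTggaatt
KNOLLE: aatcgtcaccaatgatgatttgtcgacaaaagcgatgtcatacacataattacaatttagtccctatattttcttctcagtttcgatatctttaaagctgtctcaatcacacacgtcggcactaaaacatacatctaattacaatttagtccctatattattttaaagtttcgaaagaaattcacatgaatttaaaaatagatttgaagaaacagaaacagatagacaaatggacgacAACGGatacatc
The windows lie at chr4:17624309-17624558, chr5:1861704-1861953 and chr1:2711001-2711250, in that order and all on the minus strand. The first window holds 3 AACGG cores, the second 4 and the third 1. In all 3 a core begins 11 to 13 bases before the start. A match of letters is a description of the window and not a bound site.

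The 24 libraries fell into 2 sets by the sum of their normalized counts. The 9 libraries of WT, *bcl7a* and *bcl7b* summed to 29.9 M to 40.9 M and the 15 others to 16.6 M to 22.1 M, so that for these 5 genotypes the set and the difference from WT cannot be told apart. The 10 most abundant genes took 26.8% to 33.6% of the sum in the first set and 7.87% to 13.7% in the second, while the fragments per library, estimated from the smallest values, were 19.5 M to 25.8 M and 21.2 M to 28.1 M. Replicates 1 and 3 of *bcl7a bcl7b* differed by less than the counting noise and were counted as 1 sample, which leaves n = 2 for this genotype and n = 3 for each other. A refit without replicate 2 of *bcl7a bcl7b* thus has 1 sample of it, and one without its replicate 1 or 3 loses no independent sample. The methods speak of 3 biological replicates without saying how they were grown, and p-values measure the spread between these samples. *BCL7B* transcript was at 0 in 11 of the 12 libraries that carry *bcl7b* and at 24 in replicate 3 of *bcl7a bcl7b brm-3*, against 382 to 479 in WT. *BRM* was lowest in *brm-1* (31.2 to 44.8) and *bcl7a bcl7b brm-1* (17.9 to 43.6), against 111 to 349 in WT. *BCL7A* was at 0, 18.1 and 30.1 in WT, at 0 to 4.42 in *bcl7a* and at 3.01, 12.4 and 3.11 in *bcl7a bcl7b*. The transcript of *BCL7A* was too low to check the label in either mutant. Its level was 53.0 to 91.6 in *brm-3* and 85.8 to 107 in *brm-1*, against 0 in all libraries of *bcl7a bcl7b brm-3* (adjusted p = 0.000124) and 0 to 5.05 in *bcl7a bcl7b brm-1* (adjusted p = 0.000658). WT replicate 1 stood apart in its number of genes at 0, 16191 against 12796 to 13506 in the other 8 libraries of WT, *bcl7a* and *bcl7b*. Several values that rest on it, though not all, are given without it below. In these seedlings the 4 leaf mesophyll markers were abundant and the root markers were present, as the label of whole seedlings implies. In bulk tissue, fewer cells of a type and less RNA per cell cannot be told apart.

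**Figure D1:**
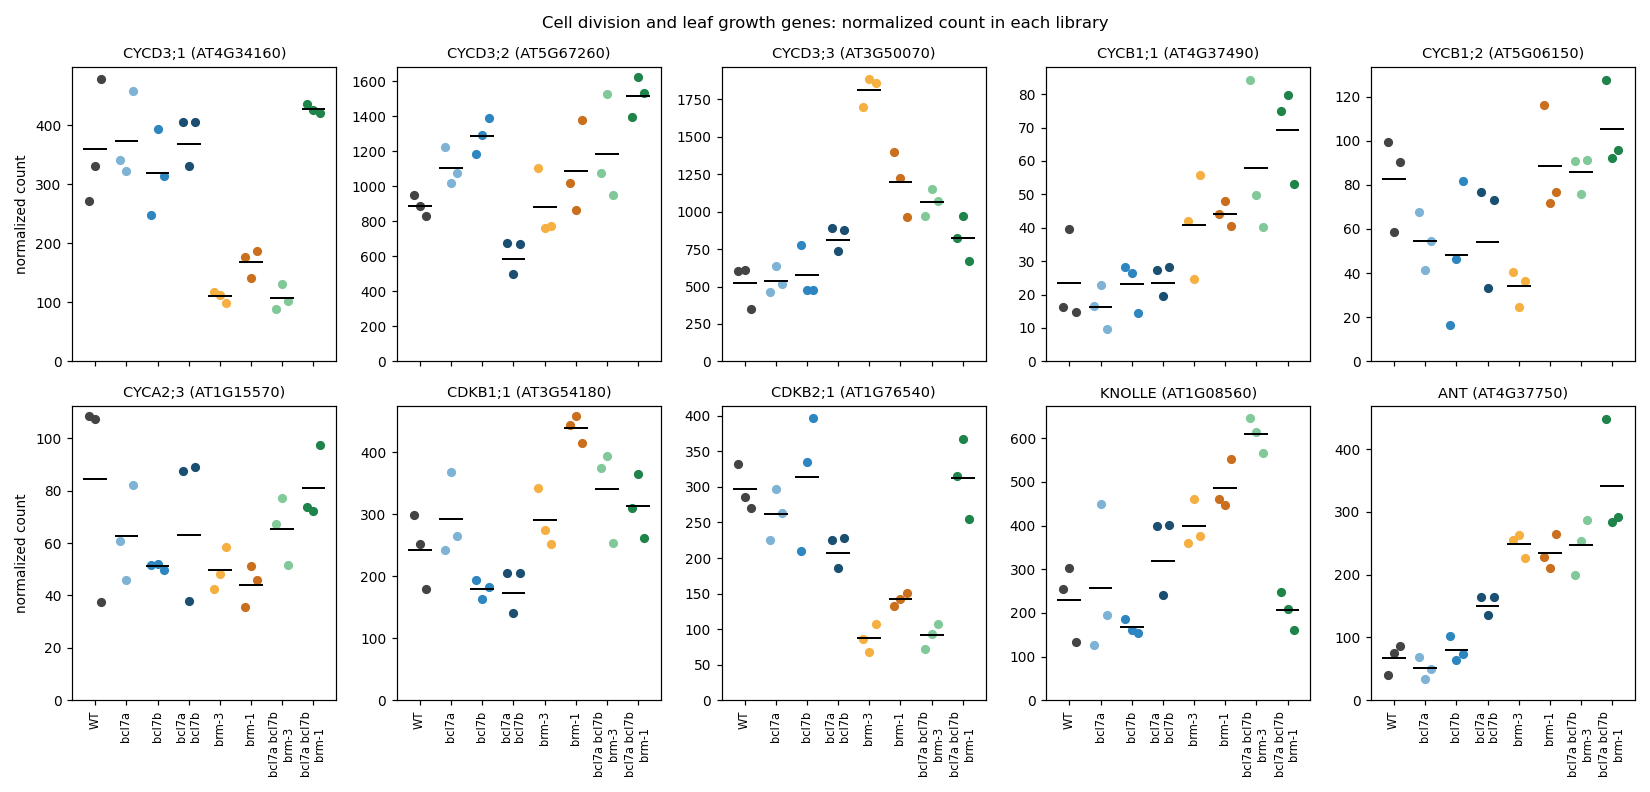
Normalized count (vertical axes, from 0) of each of the 10 genes in each of the 24 libraries (points, 3 for each of 8 genotypes), with the genotype mean as a line; the mean of *bcl7a bcl7b* takes replicates 1 and 3 as 1 sample. In the panel of *ANT* the libraries of *brm-3*, *brm-1* and both triple mutants lie at 199.8 or more and those of WT at 85.7 or less.

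Differences between genotypes were tested with limma on log2(normalized count + 1) over all 21596 genes, and a gene was called at a Benjamini-Hochberg adjusted p under 0.05 with a log2 fold change beyond 0.6. Of the 10 genes, 0 were called in *bcl7a*, where 0.352% of all genes were called (0.301% higher and 0.0509% lower), and 0 in *bcl7b*, with 2.08% of all genes (1.5% and 0.574%). At an unadjusted limma p under 0.05 the counts were 0 in *bcl7a* and 2 in *bcl7b*. In *bcl7a bcl7b*, 1 gene was higher and 1 lower than in WT (2 of 10, against 22.1% of all genes, 11.9% higher and 10.2% lower). In *brm-3*, 3 were higher and 3 lower (6 of 10, against 40%, 23.5% and 16.5%), and in *brm-1*, 4 were higher and 2 lower (6 of 10, against 48.1%, 28.9% and 19.2%). The triple mutant with *brm-3* had 4 higher and 2 lower (6 of 10, against 53.5%, 30.8% and 22.8%), and the one with *brm-1* had 4 higher and 0 lower (4 of 10, against 45.2%, 26.9% and 18.3%). In each pair of percentages the share of all genes called higher comes before the share called lower. After rescaling all libraries to the same total the split was 4 higher and 0 lower in *bcl7a bcl7b*, 6 and 2 in *brm-3*, 6 and 0 in *brm-1*, 6 and 2 in *bcl7a bcl7b brm-3* and 9 and 0 in *bcl7a bcl7b brm-1*, where 50.2% to 55.8% of all genes were higher and 1.69% to 9.22% lower. These counts are a description, and none is taken as particular to the 10 genes. Libraries of a genotype that lie wholly above or below those of WT, named for single genes below, were common over all genes. Such genes made up 22.6% (above) and 18.8% (below) in *bcl7a bcl7b*, 27.5% and 21.5% in *brm-3* and 32.6% and 23.4% in *brm-1*. In the triple mutants they were 30.3% and 23.4% with *brm-3* and 29.9% and 21.3% with *brm-1*. All 7 comparisons share the WT libraries.

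**Figure D2:**
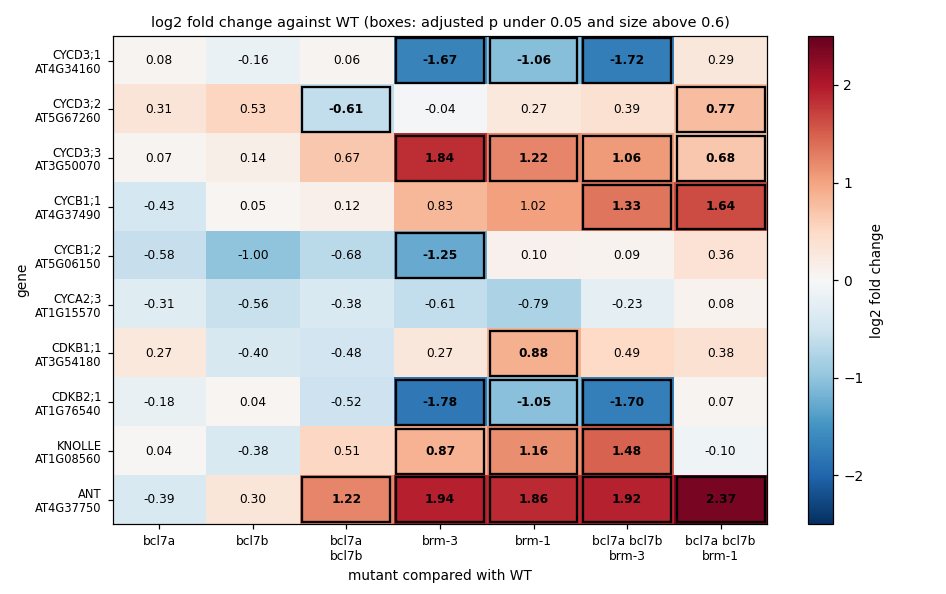
Log2 fold change of each gene (rows) in each mutant against WT (columns), with colour and number giving the value and boxes marking calls. The columns of *brm-3* and *bcl7a bcl7b brm-3* hold blue boxes for AT4G34160 and AT1G76540 (-1.67 to -1.78), and the column of *bcl7a bcl7b brm-1* holds no blue box.

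*CYCD3;1*, at chr4:16357421-16359565 on the plus strand with 4 exons, encodes the D3 cyclin that is best known as a cytokinin target. Its normalized counts were 272, 331 and 479 in WT, 342, 322 and 459 in *bcl7a*, 249, 393 and 314 in *bcl7b*, and 406, 331 and 405 in *bcl7a bcl7b*. For *brm-3* the counts read 117, 113 and 99.7, for *brm-1* 177, 142 and 188, for *bcl7a bcl7b brm-3* 88.3, 130.4 and 103 and for *bcl7a bcl7b brm-1* 436, 426 and 421. Thus all 9 libraries of *brm-3*, *brm-1* and the *brm-3* triple mutant lay below every WT library, and the *brm-1* triple mutant was back among the WT libraries. The level fell to 0.315 of WT in *brm-3* (log2 -1.67 ± 0.24 (SE), adjusted p = 9.4e-06), to 0.480 in *brm-1* (-1.06 ± 0.24, adjusted p = 0.000906) and to 0.304 in *bcl7a bcl7b brm-3* (-1.72 ± 0.24, adjusted p = 2.83e-06). In *bcl7a bcl7b brm-1* it was 1.22 of WT, with a 95% interval of -0.21 to 0.78 on the log2 scale (adjusted p = 0.344). Adding *bcl7a bcl7b* to *brm-1* raised AT4G34160 2.54-fold (log2 1.34 ± 0.24, adjusted p = 0.000161), while adding them to *brm-3* gave -0.05 ± 0.24. The gene shares 40 exonic bases, 2.13% of its exons, with AT4G34150 on the same strand, which differed by -2.06 in *brm-1* against WT and by 1.81 on adding *bcl7a bcl7b* to *brm-1*, and the part of shared reads in AT4G34160 was not tested. When the libraries were rescaled to the same total, the value in *brm-1* was -0.22 and no longer called (adjusted p = 0.482).

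*CYCD3;2*, at chr5:26836139-26839597 on the plus strand, had the highest WT level per kilobase of exon among the 10 genes. The normalized counts in the libraries were 948, 889 and 827 in WT, 1223, 1017 and 1074 in *bcl7a*, 1182, 1291 and 1387 in *bcl7b*, and 676, 501 and 669.8 in *bcl7a bcl7b*. In *brm-3* the libraries had 1104, 760.4 and 772, for *brm-1* 1020, 865 and 1379, for *bcl7a bcl7b brm-3* 1074, 1526 and 951 and for *bcl7a bcl7b brm-1* 1396, 1622 and 1533. The libraries of *bcl7a bcl7b* were below every other library, and those of *bcl7a bcl7b brm-1* above every WT and *bcl7b* library. The fall in *bcl7a bcl7b* was to 0.655 of WT (log2 -0.61 ± 0.22, adjusted p = 0.0465). It was no longer called without WT replicate 1 (-0.56, adjusted p = 0.108), WT replicate 2 (-0.61, 0.0726) or WT replicate 3 (-0.66, 0.052). It was -0.40 without *bcl7a bcl7b* replicate 2, which leaves 1 sample of that genotype, and 0.35 after rescaling to the same total. The rise in *bcl7a bcl7b brm-1* was to 1.71 of WT (0.77 ± 0.19, adjusted p = 0.00241). The *bcl7a* and *bcl7b* mutants had 1.24 and 1.45 of the WT level, neither called (adjusted p = 0.554 and 0.163). The value in *bcl7a bcl7b* therefore lay 1.46 below the sum of both on the log2 scale (departure from additivity -1.46 ± 0.29, adjusted p = 0.00433), a contrast for which 6.01% of all genes (3.03% higher, 2.98% lower) and 1 of the 10 were called. With the libraries rescaled to the same total this departure was -0.80 and not called (adjusted p = 0.0893).

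*CYCD3;3*, at chr3:18565134-18566834 on the minus strand, encodes the other D3 cyclin, and its exons overlap no other annotated gene. Normalized counts of it were 606, 608 and 353 in WT, 461, 636 and 517 in *bcl7a*, 776, 478 and 474 in *bcl7b*, and 888, 735 and 875 in *bcl7a bcl7b*. The libraries of *brm-3* stood at 1699, 1887 and 1859, for *brm-1* 1398, 1225 and 964, for *bcl7a bcl7b brm-3* 970.2, 1151 and 1070 and for *bcl7a bcl7b brm-1* 823, 969 and 671. All 15 libraries of these 5 genotypes lay above every WT library, with *brm-3* highest and no overlap between *brm-3* and any other genotype. The 15 include replicates 1 and 3 of *bcl7a bcl7b*, counted as 1 sample in the tests. The gene rose 3.57-fold in *brm-3* (log2 1.84 ± 0.22, adjusted p = 9.57e-07), 2.33-fold in *brm-1* (1.22 ± 0.22, adjusted p = 9.36e-05), 2.09-fold in *bcl7a bcl7b brm-3* (1.06 ± 0.22, adjusted p = 0.000319) and 1.60-fold in *bcl7a bcl7b brm-1* (0.68 ± 0.22, adjusted p = 0.0152). In *bcl7a bcl7b* it was 1.59 of WT and not called (0.67 ± 0.25, adjusted p = 0.0562). Leaving out 1 library at a time gave 0.41 to 0.80 there (adjusted p 0.0343 to 0.23), with the limits of a call reached in some omissions. Adding *bcl7a bcl7b* to *brm-3* lowered AT3G50070 to 0.586 (-0.77 ± 0.22, adjusted p = 0.0145), and without replicate 1 of *bcl7a bcl7b brm-3* this was -0.71 with an adjusted p of 0.0567. The rise in the *brm-1* triple mutant was not called without WT replicate 3 (0.42, adjusted p = 0.124) or without its own replicate 2 (0.55, adjusted p = 0.0784). The 3 D3 cyclin genes thus moved apart in *brm-3* and *brm-1*, with AT4G34160 down, AT3G50070 up and AT5G67260 at -0.04 and 0.27.

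*CYCB1;1*, at chr4:17621886-17624308 on the minus strand with 8 exons, encodes the B1 cyclin most used as a marker of cells in G2 and mitosis. It had the lowest WT level per kilobase of exon among the 10 genes. Its normalized counts were 16.3, 39.7 and 14.8 in WT, 16.5, 22.9 and 9.81 in *bcl7a*, 28.2, 26.4 and 14.5 in *bcl7b*, and 27.3, 19.4 and 28.2 in *bcl7a bcl7b*. Counts in *brm-3* came to 41.9, 24.8 and 55.9, for *brm-1* 44.1, 47.9 and 40.6, for *bcl7a bcl7b brm-3* 84.3, 49.7 and 40.1 and for *bcl7a bcl7b brm-1* 74.8, 79.9 and 53.2. All libraries of *brm-1* and of both triple mutants were above every WT library, while those of *brm-3* overlapped WT. The rise was called in *bcl7a bcl7b brm-3* (2.52-fold, log2 1.33 ± 0.52, adjusted p = 0.0341) and *bcl7a bcl7b brm-1* (3.11-fold, 1.64 ± 0.52, adjusted p = 0.013), and the values in *brm-1* and *brm-3* were 1.02 ± 0.52 (adjusted p = 0.109) and 0.83 ± 0.52 (adjusted p = 0.208). Leaving out 1 library at a time gave 0.77 to 1.45 in *brm-1* (adjusted p 0.0336 to 0.28). The call in the *brm-3* triple mutant was lost without WT replicate 1 (1.15, adjusted p = 0.0842), WT replicate 3 (1.08, 0.116) or its own replicate 1 (1.03, 0.14), and the call in the *brm-1* triple mutant without WT replicate 3 (1.38, 0.0524). Both calls were lost under quantile normalization (0.68 and 1.12, adjusted p = 0.291 and 0.0872). They were also lost on fitting only the compared groups (adjusted p = 0.158 and 0.065).

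*CYCB1;2*, at chr5:1859279-1861703 on the minus strand, had the largest number of AACGG cores in its window. The normalized counts in the libraries were 99.5, 58.5 and 90.2 in WT, 67.6, 41.2 and 54.8 in *bcl7a*, 16.5, 46.2 and 81.5 in *bcl7b*, and 77.0, 33.2 and 72.9 in *bcl7a bcl7b*. The *brm-3* libraries gave 40.7, 24.8 and 36.4, for *brm-1* 116, 71.9 and 76.9, for *bcl7a bcl7b brm-3* 90.7, 75.9 and 91.3 and for *bcl7a bcl7b brm-1* 128, 92.3 and 95.8. Only the *brm-3* libraries lay wholly below WT. The gene fell to 0.420 of WT in *brm-3* (log2 -1.25 ± 0.48, adjusted p = 0.0396), and adding *bcl7a bcl7b* to *brm-3* raised it 2.53-fold (1.34 ± 0.48, adjusted p = 0.047). The fall was kept only on leaving out WT replicate 2, with -1.05 to -1.48 over the 6 omissions and an adjusted p of up to 0.14, and the rise was lost without any of the 6 libraries compared (1.13 to 1.48, adjusted p 0.0651 to 0.159). After rescaling to the same total the value in *brm-3* was -0.37 and not called (adjusted p = 0.537). In *brm-1* AT5G06150 was at 1.07 of WT (0.10 ± 0.48, adjusted p = 0.881).

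*CYCA2;3*, at chr1:5361865-5365559 on the plus strand with 11 exons, encodes an A2 cyclin that restrains endoreduplication together with the kinase encoded by AT3G54180. Normalized counts of it were 109, 107 and 37.4 in WT, 60.6, 45.9 and 82.1 in *bcl7a*, 51.6, 51.9 and 49.7 in *bcl7b*, and 87.6, 37.8 and 89.1 in *bcl7a bcl7b*. For *brm-3* the counts read 42.6, 48.3 and 58.5, for *brm-1* 35.4, 51.1 and 45.9, for *bcl7a bcl7b brm-3* 67.1, 77.1 and 51.6 and for *bcl7a bcl7b brm-1* 73.9, 72.1 and 97.5. WT replicate 3 was as low as the lowest mutant libraries, so that every genotype overlapped WT. With all samples the gene was not called in any comparison, with the largest difference from WT in *brm-1* (-0.79, 95% interval -1.69 to 0.12, adjusted p = 0.14). Leaving out 1 library at a time gave -1.29 to -0.53 in *brm-1* (adjusted p 0.017 to 0.368). In *brm-3* it gave -1.11 to -0.35 (adjusted p 0.0433 to 0.584). The limits of a call were thus reached in some omissions, and the fall depends on single libraries.

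*CDKB1;1*, at chr3:20059671-20061488 on the plus strand, encodes a B-type kinase active from S phase to mitosis. Its normalized counts were 299, 251 and 179 in WT, 243, 368 and 265 in *bcl7a*, 194, 163 and 182 in *bcl7b*, and 205, 140.3 and 205 in *bcl7a bcl7b*. In *brm-3* the libraries had 343, 275 and 252, for *brm-1* 444, 458 and 415, for *bcl7a bcl7b brm-3* 374, 394 and 253 and for *bcl7a bcl7b brm-1* 311, 365 and 261. The *brm-1* libraries were above those of every other genotype, and the gene rose 1.84-fold there (log2 0.88 ± 0.24, adjusted p = 0.00425). In *brm-3* it was 0.27 ± 0.24 (adjusted p = 0.38). In *bcl7a bcl7b brm-3* the gene was not called, and leaving out 1 library at a time gave 0.29 to 0.69 (adjusted p 0.0294 to 0.358). Exonic bases shared with a gene on the other strand, whose reads cannot be told apart without strand, came to 5.15% of the exons of AT3G54180, 2.35% of those of AT1G15570, 3.22% of those of AT1G76540 and 6.12% of those of AT5G67260.

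*CDKB2;1*, at chr1:28720328-28722550 on the minus strand with 8 exons, encodes a B-type kinase of G2 and mitosis that is needed in the shoot meristem. The normalized counts in the libraries were 332, 286 and 271 in WT, 226, 297 and 263 in *bcl7a*, 209.7, 335 and 397 in *bcl7b*, and 226, 186 and 229 in *bcl7a bcl7b*. The libraries of *brm-3* stood at 85.6, 67.9 and 107, for *brm-1* 133, 142 and 151, for *bcl7a bcl7b brm-3* 72.2, 93.6 and 108 and for *bcl7a bcl7b brm-1* 316, 367 and 255. As for AT4G34160, the libraries of *brm-3*, *brm-1* and the *brm-3* triple mutant were below all WT libraries and the *brm-1* triple mutant overlapped WT. The level fell to 0.291 of WT in *brm-3* (log2 -1.78 ± 0.26, adjusted p = 1.12e-05), to 0.482 in *brm-1* (-1.05 ± 0.26, adjusted p = 0.00191) and to 0.307 in *bcl7a bcl7b brm-3* (-1.70 ± 0.26, adjusted p = 9.19e-06), and was 1.05 of WT in *bcl7a bcl7b brm-1* (95% interval -0.47 to 0.61). Adding *bcl7a bcl7b* to *brm-1* raised AT1G76540 2.17-fold (1.12 ± 0.26, adjusted p = 0.00204), and adding them to *brm-3* gave 0.08 ± 0.26. After rescaling to the same total the value in *brm-1* was -0.22 (adjusted p = 0.513). The 2 B-type kinase genes moved in opposite directions in *brm-1*.

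*KNOLLE*, at chr1:2709525-2711000 on the minus strand, had normalized counts of 256, 302 and 133 in WT, 127, 449 and 195 in *bcl7a*, 186, 161 and 153 in *bcl7b*, and 399, 240.2 and 401 in *bcl7a bcl7b*. Counts in *brm-3* came to 359.7, 461 and 377, for *brm-1* 461, 448 and 553, for *bcl7a bcl7b brm-3* 647, 615 and 566 and for *bcl7a bcl7b brm-1* 247, 208 and 162. The libraries of *brm-3*, *brm-1* and the *brm-3* triple mutant were above all WT libraries, and the *brm-1* triple mutant overlapped WT, the mirror image of AT4G34160 and AT1G76540. *KNOLLE* rose 1.82-fold in *brm-3* (log2 0.87 ± 0.34, adjusted p = 0.0454), 2.23-fold in *brm-1* (1.16 ± 0.34, adjusted p = 0.00734) and 2.79-fold in *bcl7a bcl7b brm-3* (1.48 ± 0.34, adjusted p = 0.000839). Adding *bcl7a bcl7b* to *brm-1* lowered it to 0.419 (-1.26 ± 0.34, adjusted p = 0.00683). Without WT replicate 3 the values in *brm-3* and *brm-1* were 0.51 (adjusted p = 0.253) and 0.80 (adjusted p = 0.0623), and the call in *brm-3* was also lost without any 1 of its own libraries (0.76 to 0.94, adjusted p 0.068 to 0.138). The gene shares 464 exonic bases, 33.5% of its exons, with *NPQ1* (AT1G08550) on the other strand, and the strand setting of the libraries is not given in the sources used here. *NPQ1* also differed on adding *bcl7a bcl7b* to *brm-1* (-1.41, adjusted p = 0.00067), but in *brm-3* and *brm-1* against WT it was at 0.05 and 0.52 and not called (adjusted p = 0.91 and 0.138), so that the *KNOLLE* values are uncertain and the part of *NPQ1* reads in them was not tested.

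*ANT*, at chr4:17739514-17742407 on the plus strand with 8 exons, overlaps no other annotated gene. Normalized counts of it were 40.2, 74.9 and 85.7 in WT, 68.9, 33.6 and 49.1 in *bcl7a*, 102, 64.7 and 74.2 in *bcl7b*, and 164, 136 and 165 in *bcl7a bcl7b*. The *brm-3* libraries gave 255, 264 and 227, for *brm-1* 229, 211 and 265, for *bcl7a bcl7b brm-3* 199.8, 253 and 287 and for *bcl7a bcl7b brm-1* 448, 284 and 292. Every library of these 5 genotypes lay above every library of WT, *bcl7a* and *bcl7b*, and *bcl7a bcl7b* lay below the 4 genotypes with a *brm* mutation. *ANT* rose 2.33-fold in *bcl7a bcl7b* (log2 1.22 ± 0.35, adjusted p = 0.0163), 3.85-fold in *brm-3* (1.94 ± 0.32, adjusted p = 4.04e-05), 3.63-fold in *brm-1* (1.86 ± 0.32, adjusted p = 4.6e-05), 3.79-fold in *bcl7a bcl7b brm-3* (1.92 ± 0.32, adjusted p = 2.39e-05) and 5.17-fold in *bcl7a bcl7b brm-1* (2.37 ± 0.32, adjusted p = 2.22e-06). It was the gene of the 10 that was called higher in all 5 genotypes. Without WT replicate 1 the rise in *bcl7a bcl7b* was 0.89 and not called (adjusted p = 0.0685). Nor was it called under quantile normalization (0.91, adjusted p = 0.0648) or on fitting only the compared groups (1.22, adjusted p = 0.252). Adding *bcl7a bcl7b* to *brm-3* or *brm-1* changed *ANT* by -0.02 ± 0.32 and 0.51 ± 0.32, neither called (adjusted p = 0.971 and 0.241).

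The sets of libraries differ in their sums, and rescaling all libraries to the same total moved the median gene of the 5 genotypes by 0.79 to 0.96 on the log2 scale. Relative to the median of all genes under that scaling, which was 1.11 in *brm-3* and 1.15 in *brm-1*, AT4G34160 was at -1.88 and -1.37, AT1G76540 at -2.0 and -1.36, AT3G50070 at 1.62 and 0.91, *KNOLLE* at 0.65 and 0.85, and *ANT* at 1.72 and 1.54. In the deposited scaling the medians of all genes were 0.27 and 0.35. Comparisons within the 15 libraries of low sum do not rest on the scaling between the sets, and those of *brm-3* and *brm-1* with *bcl7a bcl7b* were added after the sums had been seen. Against *bcl7a bcl7b*, *brm-3* had 1 of the 10 genes higher and 2 lower (against 11.3% of all genes, 6.24% higher and 5.05% lower), and *brm-1* had 2 higher and 1 lower (against 21.4%, 11.5% higher and 9.84% lower). AT4G34160 was lower in *brm-3* (log2 -1.73 ± 0.27, adjusted p = 0.000312), *brm-1* (-1.12 ± 0.27, adjusted p = 0.00428) and *bcl7a bcl7b brm-3* (-1.78 ± 0.27, adjusted p = 3.28e-05) than in *bcl7a bcl7b*. AT1G76540 was lower in *brm-3* (-1.26 ± 0.29, adjusted p = 0.00736) and the *brm-3* triple mutant (-1.18 ± 0.29, adjusted p = 0.00367), and at -0.53 ± 0.29 in *brm-1* (adjusted p = 0.211). AT3G50070 was higher in *brm-3* (1.17 ± 0.25, adjusted p = 0.00404), and at 1.04 without replicate 2 of *bcl7a bcl7b*, which leaves 1 sample of that genotype.

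The kinase gene AT3G54180 was higher than in *bcl7a bcl7b* in *brm-1* (log2 1.37 ± 0.27, adjusted p = 0.000849) and in the triple mutants with *brm-3* (0.97 ± 0.27, adjusted p = 0.00834) and *brm-1* (0.86 ± 0.27, adjusted p = 0.0216). Without replicate 2 of *bcl7a bcl7b*, which leaves 1 sample of that genotype, the values in the triple mutants were 0.70 and 0.59. The call in the triple mutant with *brm-1* was lost without its own replicate 2 (0.75, adjusted p = 0.0837). The cyclin gene AT5G67260 was higher in both triple mutants than in *bcl7a bcl7b* (1.0 ± 0.22 with *brm-3*, adjusted p = 0.00133, and 1.38 ± 0.22 with *brm-1*, adjusted p = 5.95e-05) and in *brm-1* (0.88 ± 0.22, adjusted p = 0.00551). The last value was 0.67 without replicate 2 of *bcl7a bcl7b*. *ANT* was higher in *bcl7a bcl7b brm-1* than in *bcl7a bcl7b* (1.15 ± 0.35, adjusted p = 0.0201), a call lost without replicate 1 of the triple mutant (0.94, adjusted p = 0.093). Without replicate 2 of *bcl7a bcl7b*, *ANT* was at 1.02. It was not called against *bcl7a bcl7b* in *brm-3* (0.73, adjusted p = 0.205), *brm-1* (0.64, adjusted p = 0.217) or *bcl7a bcl7b brm-3* (0.70, adjusted p = 0.147). In all, the triple mutant with *brm-3* had 2 of the 10 genes higher and 2 lower than *bcl7a bcl7b* (against 28.9% of all genes, 13.8% and 15.1%), and the one with *brm-1* 3 higher and 0 lower (against 23.7%, 12.8% and 10.9%).

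Between the *brm* alleles, 0 of the 10 genes were called in *brm-1* against *brm-3* (limma, against 9.94% of all genes, 5.34% higher and 4.6% lower), while 5 had an unadjusted p under 0.05. In these 5 the *brm-1* libraries did not overlap those of *brm-3*. Of all 21596 genes tested, the *brm-1* libraries lay wholly above those of *brm-3* for 4330 and wholly below them for 3851. The share of all genes at this unadjusted p is not given, so that neither count is taken as particular to the 10 genes. The differences of AT4G34160, AT5G06150, AT3G54180 and AT1G76540 were 0.61 to 1.35 on the log2 scale and that of AT3G50070 was -0.62, with adjusted p from 0.0779 to 0.123. The 95% interval for *ANT* was -0.74 to 0.57.

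The *bcl7a bcl7b* mutations were then compared across backgrounds. Added to *brm-3*, they raised 1 of the 10 genes and lowered 1 (against 21.2% of all genes, 9.08% higher and 12.1% lower), and added to *brm-1* they raised 2 and lowered 1 (against 29.5%, 14.2% and 15.3%). The genes changed on adding them to *brm-1*, AT4G34160, AT1G76540 and *KNOLLE*, were each called in *brm-1* against WT in the opposite direction, a combination found for 14.9% of all genes and for 3 of the 10. None of the 10 was called in the same direction in both, against 3.26% of all genes. The 2 comparisons share the *brm-1* libraries. The difference between the effect of *bcl7a bcl7b* in *brm-1* and in plants with BRM was tested as an interaction and was called for 5 of the 10 genes, 3 higher and 2 lower, against 31.2% of all genes (14.7% and 16.5%). It was 1.28 ± 0.36 for AT4G34160 (adjusted p = 0.0093), 1.11 ± 0.29 for AT5G67260 (adjusted p = 0.00556), 1.64 ± 0.39 for AT1G76540 (adjusted p = 0.00269), -1.21 ± 0.33 for AT3G50070 (adjusted p = 0.00792) and -1.77 ± 0.51 for *KNOLLE* (adjusted p = 0.011). Without replicate 2 of *bcl7a bcl7b*, which leaves 1 sample of that genotype, the interaction was 1.13 for AT4G34160 and 0.90 for AT5G67260.

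With *brm-3* the interaction was called for 2 of the 10 genes, 1 higher and 1 lower, against 11.5% of all genes (5.2% and 6.29%). These were AT5G67260 (1.03 ± 0.29, adjusted p = 0.0233) and AT3G50070 (-1.44 ± 0.33, adjusted p = 0.00607). The call of AT5G67260 was lost after rescaling to the same total (0.19, adjusted p = 0.663). It was also lost without replicate 2 or 3 of *brm-3* (0.94 and 0.95, 0.0606 and 0.0588) or replicate 2 of *bcl7a bcl7b brm-3* (0.83, 0.0631). Without replicate 2 of *bcl7a bcl7b* the interaction of this gene was 0.82. For AT4G34160 it was -0.12 ± 0.36, for AT1G76540 0.60 ± 0.39 and for *KNOLLE* 0.10 ± 0.51, none called (adjusted p = 0.87, 0.345 and 0.924). For AT5G06150 and *ANT* it was 2.02 ± 0.72 and -1.24 ± 0.48, not called either (adjusted p = 0.0697 and 0.093). After rescaling to the same total the interaction with *brm-1* was 0.40 for AT4G34160, 0.23 for AT5G67260 and 0.76 for AT1G76540, none called (adjusted p = 0.439, 0.58 and 0.152), whereas the direct comparisons of *bcl7a bcl7b brm-1* with *brm-1*, which lie within 1 set of libraries, kept the calls of AT4G34160, AT1G76540 and *KNOLLE* in each of the 15 other settings run. AT5G67260 was not called in that direct comparison (0.50, adjusted p = 0.0526).

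**Figure D3:**
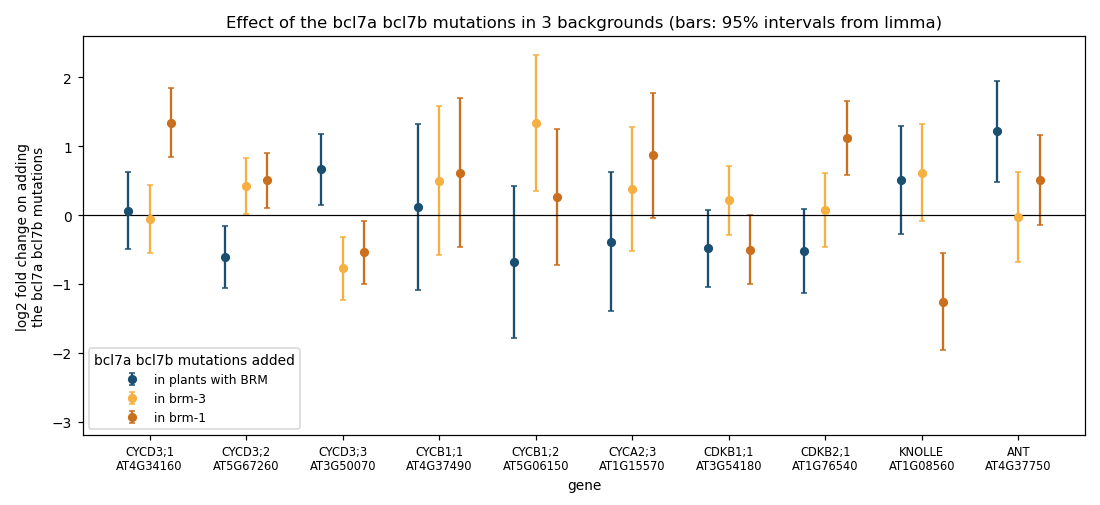
Log2 fold change (points) with its 95% interval from limma (bars) on adding the *bcl7a bcl7b* mutations to plants with BRM, to *brm-3* and to *brm-1*, for each of the 10 genes. The *brm-1* points of AT4G34160 (1.34) and AT1G76540 (1.12) lie above 0 and that of *KNOLLE* (-1.26) below it, with no other point of these 3 genes past the call.

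Markers of cell types and of the meristem moved with some of these genotypes, and their part in the values of the 10 genes was not tested. Of the 4 shoot meristem markers, *STM*, *KNAT1*, *CLV3* and *WUS*, the last pair were at 0 in WT and at 12.2 or less in all 24 libraries, so that *STM* and *KNAT1* alone could be tested. *STM*, a homeobox gene of the shoot meristem, had normalized counts of 268, 338 and 257 in WT, 82.8, 101 and 90.9 in *brm-1*, and 272, 379 and 278 in *bcl7a bcl7b brm-1*. It fell in *brm-3* (log2 -2.03, adjusted p = 0.000132), *brm-1* (-1.64, adjusted p = 0.000834) and *bcl7a bcl7b brm-3* (-1.97, adjusted p = 0.000101), and rose on adding *bcl7a bcl7b* to *brm-1* (1.74, adjusted p = 0.000898), as AT4G34160 and AT1G76540 did. *KNAT1* was not called in these comparisons. The median of *STM* and *KNAT1* was -0.32 in *brm-3* and -0.35 in *bcl7a bcl7b brm-3*, so that *KNAT1* lay above WT there, opposite to *STM*. Of these 2 genes, 2 had an unadjusted limma p under 0.05 in each of these genotypes. On adding *bcl7a bcl7b* to *brm-1* the median was 1.54, so that *KNAT1* rose with *STM*. The summed level of the 4 was 337 to 385 in WT, 236 to 253 in *brm-3*, 156 to 165 in *brm-1*, 135 to 326 in *bcl7a bcl7b brm-3* and 430.4 to 547 in *bcl7a bcl7b brm-1*. The 4 leaf mesophyll markers, led by *RBCS1A* and *PSBO1*, summed to 599964 to 722910 in WT, with 1 of 4 called lower in *bcl7a bcl7b* (253593 to 387109), 4 of 4 in *brm-3* (137943 to 264773), 3 of 4 in *brm-1* (153354 to 227128), 4 of 4 in *bcl7a bcl7b brm-3* (108226 to 127745) and 3 of 4 in *bcl7a bcl7b brm-1* (215951 to 328957). The 8 root markers summed to 24468 to 28168 in WT, 49751 to 51617 in *bcl7a bcl7b*, 19307 to 23330 in *brm-3*, 19389 to 26666 in *brm-1*, 30654 to 41653 in *bcl7a bcl7b brm-3* and 60196 to 63805 in *bcl7a bcl7b brm-1*. Of these 8, 1 was called higher and 2 lower in *bcl7a bcl7b*, 0 and 6 in *brm-3*, 0 and 4 in *brm-1*, 0 and 5 in *bcl7a bcl7b brm-3* and 1 and 4 in *bcl7a bcl7b brm-1*. The median log2 fold change of the 8 was -0.67, -1.54, -1.33, -1.55 and -0.80 in this order. The rise of the sum in *bcl7a bcl7b* and both triple mutants was thus not shared by the median marker. In the same order 11.9%, 23.5%, 28.9%, 30.8% and 26.9% of all genes were called higher, and 10.2%, 16.5%, 19.2%, 22.8% and 18.3% lower. Of the root meristem markers, *PLT1* and *PLT2* were at 29.8 or less in all libraries, and *WOX5* was called higher in the 4 genotypes with a *brm* mutation, with a sum of the 3 of 10.4 to 29.8 in WT and 71.8 to 126 in *bcl7a bcl7b brm-3*.

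The other genes of the cell cycle were taken from lists by role. In *bcl7a* and *bcl7b* the lists had 0 genes called (limma), with 0 to 4 and 0 to 5 of a list at an unadjusted p under 0.05. Of the 13 tested genes of G1/S control, 2 were higher and 1 lower in *bcl7a bcl7b*, 4 and 2 in *brm-3*, 5 and 2 in *brm-1*, 6 and 3 in *bcl7a bcl7b brm-3* and 5 and 1 in *bcl7a bcl7b brm-1*. In this order of genotypes the share of all genes called was 11.9%, 23.5%, 28.9%, 30.8% and 26.9% higher and 10.2%, 16.5%, 19.2%, 22.8% and 18.3% lower, and each list is set beside these shares. *CDKA;1*, the kinase partner of the D-type cyclins, fell in all 5, from 1089, 974 and 1278 in WT to 638, 688 and 647 in *bcl7a bcl7b* (log2 -0.73, adjusted p = 0.0133) and 555, 397 and 609.7 in *brm-1* (-1.11, adjusted p = 3.36e-05). Rescaled to the same total it was at 0.23 and -0.27 there and not called (adjusted p = 0.443 and 0.299). *DPA*, a partner of E2F factors, was at 0, 32.6 and 15.5 in WT and at 99.2, 139 and 164 in *brm-1* (4.01, adjusted p = 0.000149), and, as for the other genes below with a WT library at 0, the size of this difference depends on the pseudocount. The single WT zero of this gene and of *MCM2*, *CDT1A*, *CYCB2;2* and *AIL7* is in WT replicate 1, and without that library *DPA* was at 2.49 in *brm-1* (adjusted p = 5.27e-05). Of the 14 genes of DNA replication, 2, 3, 6, 6 and 7 were higher in the same order of genotypes and 1 was lower, in *brm-3*. *MCM2*, a helicase subunit, was at 0, 25.0 and 21.0 in WT and at 86.8, 56.4 and 66.4 in *brm-1* (3.07, adjusted p = 0.00748), and *CDT1A*, which licenses origins, at 0, 10.4 and 36.9 in WT and at 56.5, 44.5 and 58.3 in *bcl7a bcl7b* (2.77, adjusted p = 0.0435). Without WT replicate 1 neither was called (1.55 and 1.31, adjusted p = 0.0697 and 0.215), and the list had 1, 2, 3, 6 and 4 genes higher. Under quantile normalization the list had 0, 1, 3, 4 and 4 higher, beside 9.16% to 24.9% of all genes.

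**Figure D4:**
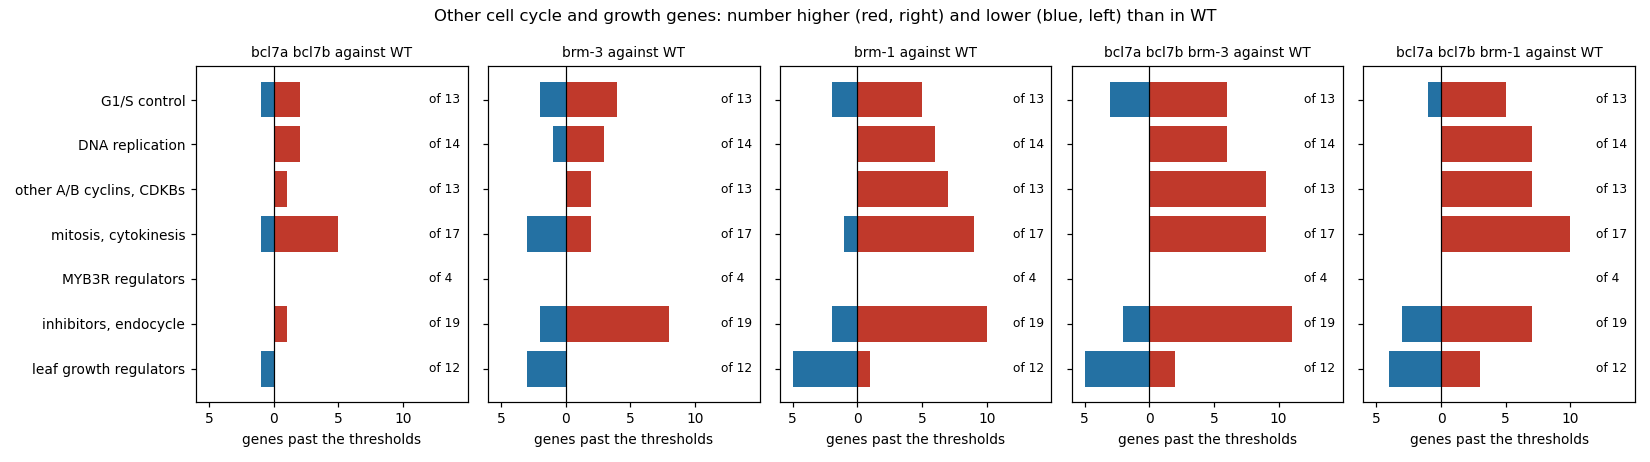
Number of genes called higher (red bars, right of 0) and lower (blue bars, left of 0) than in WT in each of 7 lists of cell cycle and growth genes, for 5 mutant genotypes, with the number of genes tested at the right of each panel. For mitosis and cytokinesis the bars to the right reach 9 of 17 in *brm-1* and 10 of 17 in *bcl7a bcl7b brm-1*. Under quantile normalization, not drawn, 4 of 17 were higher in each of these genotypes.

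Of the 13 other A-type and B-type cyclin and B-type kinase genes, 1, 2, 7, 9 and 7 were higher in the same order and 0 were lower (limma), beside 11.9% to 30.8% of all genes higher. Without WT replicate 1, 3, 1, 9, 9 and 10 were higher. Under quantile normalization 0, 0, 4, 6 and 5 were higher, beside 9.16% to 24.9% of all genes. The median of these 13 was 1.43 on the log2 scale in *brm-1* and 1.81 in *bcl7a bcl7b brm-1*, beside 0.35 and 0.29 for all genes. Most of these genes were low, and *CYCB2;2* had 0, 25.2 and 1.49 in WT and 68.4, 78.3 and 103 in *brm-1* (4.37, adjusted p = 0.00038). The value of this gene without WT replicate 1 is not given. Of the 17 genes of mitosis and cytokinesis, 5, 2, 9, 9 and 10 were higher and 1, 3, 1, 0 and 0 lower, with 2 of 17 in *brm-3* beside 23.5% of all genes higher and 10 of 17 in *bcl7a bcl7b brm-1* beside 26.9%. Without WT replicate 1, 3, 2, 8, 10 and 7 were higher. Under quantile normalization 1, 0, 4, 5 and 4 were higher, beside 9.16%, 18.7%, 22.2%, 24.9% and 21.1% of all genes. The kinesin gene *HIK* was at 0, 0 and 11.8 in WT and at 31.6, 38.9 and 40.1 in *brm-1* (4.01, adjusted p = 0.00437, and 2.46 with 0.0643 under quantile normalization), and *KIN12A*, a kinesin of the phragmoplast, was listed at 0 in all 3 WT libraries and at 49.4, 15.4 and 49.6 in *bcl7a bcl7b*. *SNAP33*, a SNARE partner of the KNOLLE protein, fell in *bcl7a bcl7b* (-0.73, adjusted p = 0.021) and *brm-1* (-0.63, adjusted p = 0.0111), and was at 0.24 and 0.21 after rescaling to the same total, not called (adjusted p = 0.453 and 0.454). The 4 *MYB3R* genes had 0 calls in all 7 comparisons with WT (limma), with 1 gene at an unadjusted p under 0.05, in *bcl7a bcl7b brm-3*. Without WT replicate 1, 1 of the 4 was higher in *brm-1* and in *bcl7a bcl7b brm-1*, beside 26% and 24.1% of all genes. After rescaling to the same total 1 was higher in *bcl7a bcl7b brm-1*, beside 54.1%. Under quantile normalization 1 was lower in *bcl7a bcl7b brm-3*, beside 26% of all genes lower.

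Of the 19 inhibitor and endocycle genes, 1, 8, 10, 11 and 7 were higher and 0, 2, 2, 2 and 3 lower in the same order, beside the same 11.9% to 30.8% of all genes higher and 10.2% to 22.8% lower. Without WT replicate 1, 3, 6, 7, 7 and 7 were higher. Under quantile normalization 0, 5, 8, 7 and 6 were higher, beside 9.16% to 24.9% of all genes. *KRP1*, which encodes an inhibitor of cyclin-dependent kinases, had normalized counts of 75.1, 14.7 and 20.6 in WT, 482, 555 and 398 in *brm-1*, and 66.0, 67.6 and 50.5 in *bcl7a bcl7b brm-1*. It rose in *brm-1* (log2 4.01, adjusted p = 0.000246) and fell on adding *bcl7a bcl7b* to *brm-1* (-2.94, adjusted p = 0.00676). *KRP2*, another inhibitor of this family, rose in *bcl7a bcl7b* (1.23, adjusted p = 0.0452, and 1.16 with 0.0878 without WT replicate 1) and in *brm-1* (2.80, adjusted p = 3.44e-06), from 61.3, 72.2 and 68.8 in WT to 515, 575 and 361 in *brm-1*. *SIM*, which promotes endoreduplication in trichomes, fell in *brm-1* (-1.71, adjusted p = 1.92e-05). Of the 12 tested leaf growth regulators, 0, 0, 1, 2 and 3 were higher and 1, 3, 5, 5 and 4 lower, beside the same shares, and without WT replicate 1 these were 0, 0, 0, 1 and 3 higher and 1, 3, 4, 6 and 4 lower. After rescaling to the same total, 3, 2, 3, 3 and 4 were higher and 0, 2, 1, 1 and 1 lower. Beside them 50.2% to 55.8% of all genes were higher and 1.69% to 9.22% lower. Under quantile normalization 0, 0, 0, 1 and 3 were higher and 1, 3, 5, 8 and 4 lower. Beside them 9.16% to 24.9% of all genes were higher and 8.36% to 26% lower. *KLU*, a cytochrome P450 gene that promotes leaf growth, fell from 557, 369 and 548 in WT to 165, 129 and 159 in *bcl7a bcl7b* (-1.74, adjusted p = 0.000445) and to 139, 112 and 91.0 in *brm-1* (-2.09, adjusted p = 2.53e-06), while *AIL7*, a relative of *ANT*, rose in *brm-1* (2.89, adjusted p = 0.0177) from a WT level of 0, 35.4 and 1.37, a call lost without WT replicate 1 (1.82, adjusted p = 0.123). *KLU* fell in each of the 5 genotypes in which *ANT* rose, all set against the same WT libraries. After rescaling to the same total the value of *KLU* was -0.77 in *bcl7a bcl7b* and -0.30 in *brm-3*, not called (adjusted p = 0.0523 and 0.389).

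Among the 10 genes, the 8 genotype means on the log2 scale ran most alike for AT4G34160 and AT1G76540 (Pearson r = 0.958) and for AT4G37490 and *ANT* (r = 0.934), and most opposed for AT1G76540 and *KNOLLE* (r = -0.911). These correlations describe 8 means that share libraries and scaling. Over all tested genes, the means most like those of AT4G34160 were of *SUC2* (r = 0.989), AT5G06280 (r = 0.989) and *IQD22* (r = 0.985). *SUC2*, which encodes a sucrose carrier of the phloem, had means of 1532 in WT, 348 in *brm-3*, 653 in *brm-1*, 359 in *bcl7a bcl7b brm-3* and 1998 in *bcl7a bcl7b brm-1*. Those most like AT4G37490 were of AT5G12010, *GSTU4* and *TSBtype2* (r = 0.980 to 0.985), and those most like *ANT* of AT2G27900, AT4G17020 and AT3G44160 (r = 0.989 to 0.993). Per kilobase of exon, the mean WT level was 597 ± 40.8 (SD, n = 3) for AT5G67260, 363 ± 102 for AT3G50070 and 192 ± 57.1 for AT4G34160, 217 ± 23.2 for AT1G76540 and 176 ± 43.9 for AT3G54180. It was 166 ± 63.1 for *KNOLLE*, 46.5 ± 12.1 for AT5G06150, 41.4 ± 20 for AT1G15570, 31.1 ± 11.0 for *ANT* and 14.5 ± 8.53 for AT4G37490, so that neighbours in this order from AT1G76540 to *KNOLLE* and from AT5G06150 to *ANT* differed by less than the larger of their SDs.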

How the data were processed

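RNA-seq libraries from 24 seedling samples (8 genotypes, 3 each) were analysed from a deposited table of normalized counts, which holds 33681 genes. The authors made these values, a signal from which whole reads were not recovered here, with Salmon 1.5.1 against the AtRTD2 transcripts, followed by DESeq2 size factors, and deposited the result. The methods name TPM values as the input. Groups came from the sample labels. limma 3.58.1 (R 4.3.3, data.table package version 1.17.8) was fitted to log2(value + 1) of the 21596 genes with 10 or more in 3 or more libraries, over all 8 genotypes with a mean-variance trend, after averaging 2 libraries of *bcl7a bcl7b* that differed by less than counting noise (23 samples). Benjamini-Hochberg adjustment was over all tested genes, and calls needed an adjusted p under 0.05 and a log2 fold change beyond 0.6. Code was tested on simulated data. The 10 genes and the gene lists were chosen with earlier results of these data known. From each list, the text names the called genes with the largest rise and fall in *bcl7a bcl7b* and *brm-1*, and for 3 of the 10 genes the 3 genes with the most similar genotype means. Single marker genes were named after their values were seen. Alternatives were other pseudocounts (0.1, 5), filters, scalings, sample sets, a replicate block and leaving out each library. For the gene lists, the other scalings and leaving out WT replicate 1 were chosen after the data had been seen. Loci and promoters are from RefSeq TAIR10.1. The sequence of 1 promoter window is not reported here. Gene names were matched by locus ID (32954 of 33681).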

Additional observations from a re-analysis of the deposited data

Results flagged for a closer look

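For 5 of the 10 genes, adding the *bcl7a bcl7b* mutations had a different effect in *brm-1* than in plants with BRM, by the limma interaction. This interaction was called for 31.2% of all genes (14.7% higher and 16.5% lower). The difference on the log2 scale was 1.28 for *CYCD3;1* (AT4G34160), 1.11 for *CYCD3;2* (AT5G67260), -1.21 for *CYCD3;3* (AT3G50070), 1.64 for *CDKB2;1* (AT1G76540) and -1.77 for *KNOLLE*. After rescaling to the same total it was 0.40 for AT4G34160, 0.23 for AT5G67260 and 0.76 for AT1G76540, none called. Without replicate 2 of *bcl7a bcl7b*, which leaves 1 sample of that genotype, it was 1.13 for AT4G34160 and 0.90 for AT5G67260. In *brm-3* the difference was called for AT5G67260 (1.03) and AT3G50070 (-1.44), beside 11.5% of all genes. The call of AT5G67260 was lost after rescaling (0.19) and without replicate 2 or 3 of *brm-3* (0.94 and 0.95) or replicate 2 of *bcl7a bcl7b brm-3* (0.83). Its value was 0.82 without replicate 2 of *bcl7a bcl7b*. The effect of *bcl7b* on AT5G67260 also differed between plants with and without BCL7A (-1.46, a contrast called for 6.01% of all genes), but not after rescaling (-0.80, adjusted p = 0.0893).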

How the results depend on the processing

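Of 50 calls, rescaling to the same total lost 9, fitting only the compared groups 12, quantile normalization 5, no filter on low values 3 and a pseudocount of 0.1 lost 2. Leaving out WT replicate 3 lost 7 and *bcl7a bcl7b* replicate 2 lost 9. These last losses are out of fewer than 50 calls, as a library was left out only for comparisons that include its genotype. The cause was not tested, except that fitting fewer groups leaves fewer samples to estimate the spread.

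Rescaled to the same total, the number of the 10 genes called was 1 in *bcl7b* (0 before), 4 in *bcl7a bcl7b* (2 before) and 9 in *bcl7a bcl7b brm-1* (4 before). The share of all genes called higher and lower in these genotypes was 3.3% and 0.232%, 50.2% and 1.69%, and 54.1% and 6.91%. In *brm-3* and *brm-1* the shares became 50.5% and 4.15%, and 51.7% and 7.13%. For the interaction with *brm-1* 3 genes were called, all lower, against 3 higher and 2 lower before. Beside them 4.73% of all genes were higher and 34.5% lower. For the departure from additivity 3 were called, all higher, with the 1 before, *CYCD3;2*, lost. Beside them 14.2% of all genes were higher and 1.03% lower. Under that scaling *CYCD3;2* was at 0.35 in *bcl7a bcl7b* and 0.86 in *brm-3*, *CYCA2;3* at 0.27 in *brm-3* and 0.039 in *brm-1*, and *KNOLLE* at 0.82 in *bcl7a bcl7b brm-1*. With quantile normalization the counts were 1 in *bcl7a bcl7b* (9.16% of all genes higher and 8.36% lower) and 1 in *brm-1* against *brm-3* (0 before, 6.08% and 6.65%). *CYCD3;2* was then at 0.069 in *brm-3* and *CDKB2;1* at -0.026 in *bcl7a bcl7b brm-1*. Without the filter the count was 1 in *bcl7a bcl7b*, and 1 for *bcl7a bcl7b brm-3* against *brm-3* (2 before), as with a pseudocount of 0.1. With only the compared groups it was 0 in *bcl7a bcl7b*, 2 in *bcl7a bcl7b brm-1*, 3 in *brm-1* against *brm-3* and 1 for the interaction with *brm-3* (2 before).

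Leaving out 1 library at a time, the counts ranged from 1 to 2 in *bcl7a bcl7b*, 4 to 6 in *brm-3*, 6 to 7 in *brm-1*, 5 to 7 in *bcl7a bcl7b brm-3* and 2 to 4 in *bcl7a bcl7b brm-1* (2 without WT replicate 3). They ranged from 0 to 1 for *bcl7a bcl7b brm-3* against *brm-3*, 3 to 5 for *bcl7a bcl7b brm-1* against *brm-1* (5 without *brm-1* replicate 3), 1 to 3 for *bcl7a bcl7b brm-1* against *bcl7a bcl7b* (1 without *bcl7a bcl7b* replicate 2), 3 to 6 and 1 to 3 for the interactions with *brm-1* and *brm-3*, and 1 to 2 for additivity. Values that crossed 0 were *CYCD3;1* in *bcl7a bcl7b* (-0.12 to 0.29), AT5G67260 in *brm-3* (-0.21 to 0.058), and AT1G76540 (-0.057 to 0.20) and *KNOLLE* (-0.45 to 0.14) in *bcl7a bcl7b brm-1*. None of these 4 was called. The ranges of comparisons with *bcl7a bcl7b* include the refit without its replicate 2, which has 1 sample of that genotype.

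Samples with the same replicate number did not deviate together (84 pairs, r from -0.072 to 0.115, 1 over 0.1). With the replicate number as a block and all 24 libraries separate, 3 genes were called for the interaction with *brm-3* (2 before) and 4 in *brm-3* against *bcl7a bcl7b* (3 before), and *CYCD3;2* in *bcl7a bcl7b* was at -0.54 (adjusted p = 0.0401), short of the size limit.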
